A study of Mus musculus with 6 samples.

Results

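Clustered regions of histone H3 trimethylated at lysine 9 (H3K9me3) on mouse chromosomes 14 to 19 were followed from wild-type thymocytes to thymocytes without KAP1. The members were chosen by position in the wild-type list: neighbouring regions at most 100 kb apart were chained, and chains of 3 or more regions were kept. This gave 36 chains with 279 of the 3748 wild-type regions. The 33 knockout regions that touched a chain span by at least 1 base were added, of 605 in the knockout list. Chromosomes 14 to 19 hold 587 wild-type and 71 knockout regions in all, so the chains took 47.5% and 46.5% of them.

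H3K9me3 is a mark of silent heterochromatin. KAP1, the product of Trim28, is a corepressor that KRAB zinc finger proteins bring to specific DNA sequences, many of them in transposable elements, and it recruits the methyltransferase SETDB1, which writes this mark. H3K9me3 also lies over the satellite repeats beside centromeres, where the SUV39H enzymes write it. Mouse chromosomes are telocentric, so the first assembled sequence of a chromosome is the part nearest to its centromere.

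H3K9me3 was mapped by chromatin immunoprecipitation and sequencing in total thymocytes, which are mostly T cell progenitors. One group was wild type and the other carried a T cell-specific Kap1 knockout, and both had the C57BL/6 / sv129sv background. Each group had 1 library. The sources used here name neither the Cre driver nor the age or number of the mice, and total thymocytes can include cells in which a T cell-specific allele is intact. The other 4 samples of the series, KAP1 immunoprecipitations and inputs, were not analysed here. Each list gives only positions on the mm9 build, with no read count, so the depth is unknown, the strength of a region cannot be given, and none of the values has an error between replicates. A stretch without a region was not called there, and may still carry the mark below the calling threshold.

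Most clustered regions on these chromosomes were called in the wild type alone. A knockout partner, meaning at least 1 shared base, was found for 33 of the 279 wild-type members, or 11.8% (Wilson 95% interval 8.55 to 16.1%), against 17.5% of all wild-type regions. Among all chained regions, those on X and Y included, the share was 23.5%. The wild-type members covered 872 kb, the knockout regions 189 kb of the same spans, and both lists together shared 168 kb. The ratio of covered bases was therefore 4.62, against 2.23 in all chains of the genome. Of the wild-type bases, 19.2% were also covered in the knockout, against 41.4% in all chains. Of the 36 chains, 14 held a knockout region, or 38.9% (Wilson 24.8 to 55.1%), against 51.6% of all chains in the genome and 47.4% of those on chromosomes 1 to 13. The 22 others held none. In no chain did the knockout cover more bases than the wild type, and in no chain did every wild-type region have a partner. The rule favours wild-type bases, since chains were built from wild-type regions alone and knockout regions were clipped to their spans. The intervals take in no error but that of counting, as if neighbours in a chain were independent, and with 1 library per genotype no difference between the genotypes could be tested.

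The share with a partner varied over the 6 chromosomes. On chromosome 14, 1 of 65 members had a partner (1.54%, Wilson 0.272 to 8.21%). Chromosome 15 had none among 20 (Wilson 0 to 16.1%; a limit of 3 counts allows a share of up to 15%). Chromosome 17, with 14 chains and 125 members, had 16 with a partner (12.8%, 8.03 to 19.8%), and chromosome 19 had 5 of 30 (16.7%, 7.34 to 33.6%). Chromosome 16 had 7 of 27 (25.9%, 13.2 to 44.7%) and chromosome 18 had 4 of 12 (33.3%, 13.8 to 60.9%). By covered bases the order was similar: the share of wild-type bases also covered in the knockout was 56.9% on chromosome 16, 50.8% on 18, 22.7% on 19, 15.2% on 17, 0.828% on 14 and 0% on 15. The intervals of neighbours in this order overlap.

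**Figure D1:**
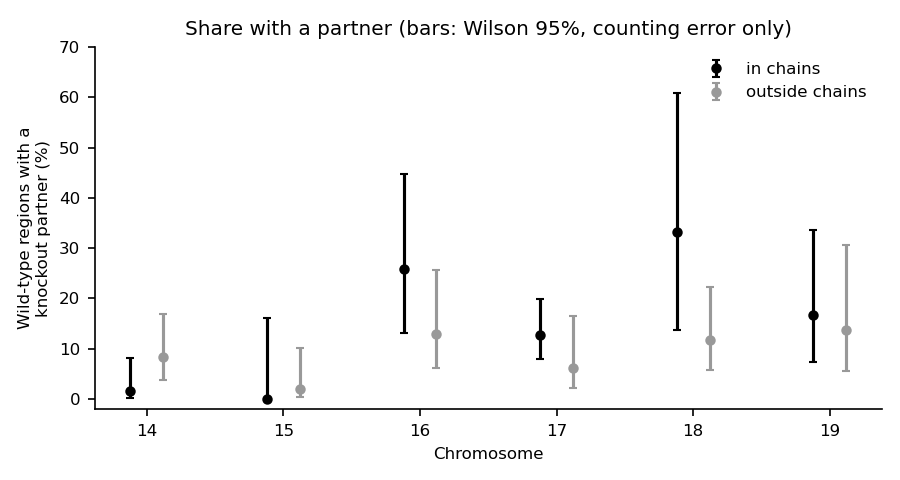
Percentage of H3K9me3 regions of the wild type that had a knockout partner (y axis) on each chromosome (x axis), for regions in chains (black) and outside chains (grey); points are shares and bars are Wilson 95% intervals. In chains the points run from 0% on chromosome 15 to 33.3% on chromosome 18, and outside chains from 1.92% on chromosome 15 to 13.8% on chromosome 19.

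Regions outside chains on the same chromosomes served for comparison. They had a partner in 27 of 308 cases (8.77%, Wilson 6.09 to 12.5%) and were narrower, with a median width of 588.5 bp against 1975 bp for the members. Within 2 width classes the order was reversed: from 1 to 3 kb, 6 of 63 unchained regions had a partner (9.52%, 4.44 to 19.3%) against 6 of 115 members (5.22%, 2.41 to 10.9%). From 3 to 10 kb it was 5 of 12 (41.7%, 19.3 to 68%) against 15 of 68 (22.1%, 13.8 to 33.3%), and no unchained region reached 10 kb. Under 500 bp the members had the higher share, 10.7% against 6.87%, and from 500 bp to 1 kb the shares were 7.41% and 6.86%. On chromosome 14, 6 of 72 unchained regions had a partner (8.33%, 3.88 to 17%), against 1 of 65 chained ones. On chromosome 16 it was 6 of 46 unchained regions (13%, 6.12 to 25.7%) against 7 of 27. None of these differences was tested, because the regions are clustered and each genotype has 1 library.

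Chain size ran from 3 to 50 wild-type regions with a median of 5, and spans from 13.7 to 706 kb with a median of 127 kb. Wild-type regions covered between 1.44% and 54.8% of a chain's span (median 8.62%). The knockout coverage was concentrated in few chains. The first chain of chromosome 16 held 34.5% of all knockout bases in chains and 12.2% of the wild-type bases, and the chain with most regions, on chromosome 17, held 18.5% and 26.2%. The 4 chains with most knockout bases, the other two being the first chains of chromosomes 17 and 18, held 83.2% of the knockout bases and 47.8% of the wild-type bases.

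**Figure D2:**
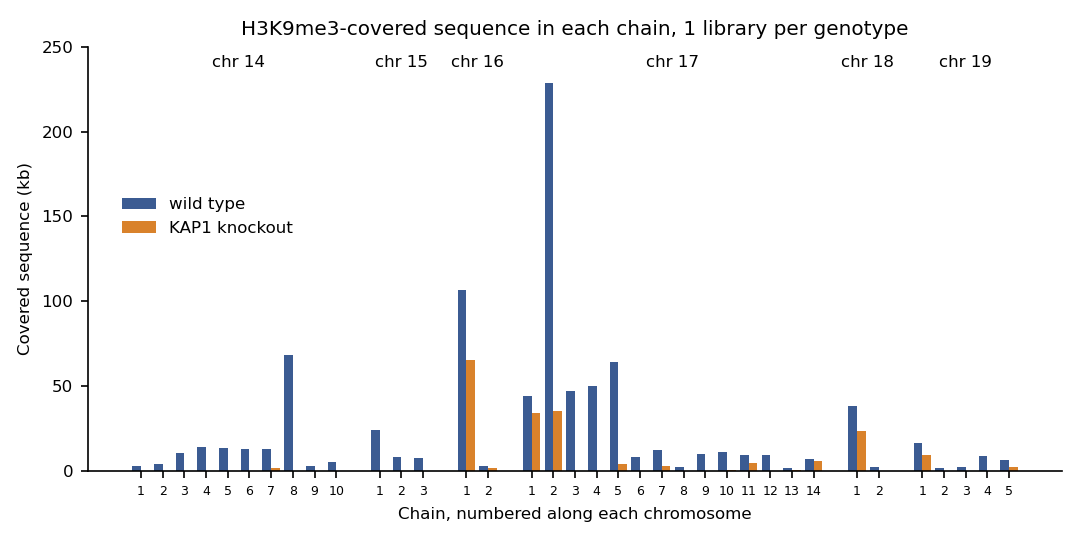
Sequence covered by H3K9me3 regions (kb, y axis) in each of the 36 chains (x axis, numbered along each chromosome) in wild type (blue) and KAP1 knockout (orange), 1 library each. The tallest wild-type bar is the second chain of chromosome 17 (229 kb, with 34.9 kb in the knockout), and the tallest knockout bar is the first chain of chromosome 16 (65.1 kb, with 107 kb in wild type).

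Chains that held the first wild-type region of their chromosome had most of the knockout bases. Those of chromosomes 16, 17 and 18 had 65.1, 33.8 and 23.2 kb. Chromosome 14 had no such chain, and that of chromosome 15 held no knockout region. On chromosomes 15 to 19 the first wild-type region of the chromosome belonged to a chain, and these 5 chains began between 2999954 and 3063407. This grouping was made after the values were seen. Together they held 54 members, 14 of them with a partner (25.9%, Wilson 16.1 to 38.9%), and covered 229 kb in the wild-type and 131 kb in the knockout list, a ratio of 1.74. The other 31 chains held 225 members, 19 with a partner (8.44%, 5.47 to 12.8%), and covered 643 kb and 57.4 kb, a ratio of 11.2. The share of wild-type bases also covered in the knockout was 53.4% in the first chains and 7.11% in the others.

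Chromosome 16 had the largest of these first chains, from 3008764 to 3539447. It held 24 wild-type regions over 107 kb and 5 knockout regions over 65.1 kb. The 6 members with a partner were among its wider ones. A region from 3110670 to 3128333 (17.7 kb) overlapped a knockout region of 16969 bp, and one from 3231555 to 3248478 (16.9 kb) overlapped a knockout region of 15.1 kb. A single 18.6 kb knockout region, from 3337240 to 3355879, overlapped a pair of wild-type regions of 8722 and 7418 bp. The 18 members without a partner were at most 6755 bp wide.

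On chromosome 17 the first chain, from 3004593 to 3084612, had 3 members. The widest member of all, 34.2 kb from 3004593 to 3038836, overlapped a 25.6 kb knockout region with nearly the same start (3004619) and an earlier end (3030204). The 8648 bp region from 3075965 overlapped an 8222 bp knockout region, and the 959 bp region between them had no partner. Wild-type coverage was 43.9 kb and knockout coverage within the chain span 33.8 kb; the second knockout region ended 7 bp past the last wild-type region.

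On chromosome 18 the first chain, from 3000186 to 3135211, had 4 of 9 members with a partner, with 38.0 kb covered in the wild-type and 23.2 kb in the knockout list. On chromosome 19 the first chain, from 3063407 to 3255203, had 2 of 9, with 16.2 kb and 9.18 kb. Chromosome 15 differed: its first chain, from 2999954 to 3086735, had 9 regions over 23.9 kb and no knockout region. On chromosomes 1 to 13, 9 chains held the first region of their chromosome, and 21 of their 94 regions had a partner (22.3%, Wilson 15.1 to 31.8%), against 340 of 1654 (20.6%, 18.7 to 22.6%) in the other chains there. By bases the order there was the other way round from chromosomes 14 to 19: 35.8% of the wild-type sequence of those first chains was also covered in the knockout, and 40.3% of that of the other chains (ratios of covered bases 2.67 and 2.31). The 35.8% is not typical of those first chains: that of chromosome 11 gave 88.5 of the 136 kb shared, and those of chromosomes 7 and 13 shared none. Whether the contrast between first and other chains differs between the chromosome groups was not tested.

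The chain with most regions lay on chromosome 17 from 6220274 to 6926262. It held 50 wild-type regions over 229 kb, or 32.4% of the span, and 7 knockout regions over 34.9 kb, a ratio of 6.55. A partner was found for 6 of the 50 (12%). Of the 6 members of this chain of at least 10 kb, only the 15.1 kb region from 6497416 to 6512487 had one, a knockout region of 6835 bp that lay inside it. The others with a partner were 3958 to 5370 bp wide, and each of these 5 knockout regions was wider than its wild-type region (4588 to 5652 bp). Wider wild-type regions nearby, such as the 11.4 kb region from 6477906 and the 10.7 kb region from 6257861, had no partner.

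Further along the proximal part of chromosome 17, known for the t complex, 2 well covered chains held no knockout region. The chain from 7504738 to 7632695 had 11 wild-type regions over 47.0 kb, and that from 13218280 to 13366527 had 10 over 49.7 kb, with an end region of 17.9 kb. Wild-type regions covered 36.7% and 33.5% of their spans, slightly more than in the chain with most regions. A neighbouring chain from 13498769 to 13746279 held 63.9 kb of wild-type sequence in 9 regions and 3.77 kb of knockout sequence in 2. Its partners sat at its ends, at a 555 bp region that opens the chain and a 2751 bp region that closes it. The 7 regions between, among them the widest of all members without a partner (24.8 kb from 13511953 to 13536751) and one of 14.3 kb from 13635711, had none. Which of these regions lie on genes was not analysed here.

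**Figure D3:**
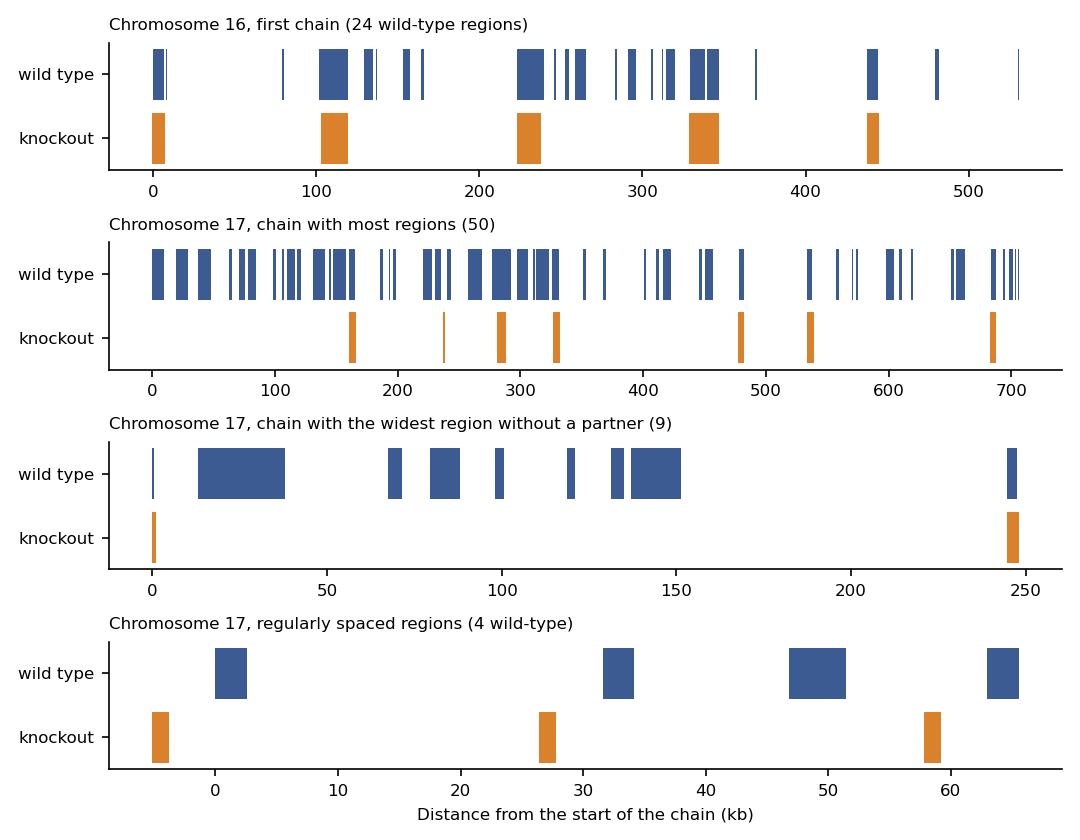
Positions of wild-type (blue) and knockout (orange) regions in 4 chains, by distance from the start of the chain (kb, x axis); each bar is a region drawn to scale. The first chain of chromosome 16 has 5 knockout regions below its wider wild-type regions, the chain with most regions has 7, the third chain shown has knockout regions only at its ends, and in the fourth 2 knockout regions lie beside the wild-type ones, with 1 more, no member, just before the chain.

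The remaining chains of chromosome 17 had few partners, some of them closely matched. In the chain from 39979890 to 40027231 a 5856 bp region overlapped a knockout region of 5783 bp, with starts 22 bp and ends 51 bp apart, and its 492 and 316 bp neighbours had no partner. The share of wild-type bases also covered in the knockout, 86.8%, was the highest of the 36 chains. In the chain from 23448973 to 23673379, 3 of 7 regions had a partner and 44.7% of the wild-type bases were also covered in the knockout. In the chains from 22684961 and 39236008, 1 of 6 and 1 of 3 regions had a partner, of 263 and 160 bp. The chains from 17221227, 21270990, 14088356 and 35539549 held no knockout region.

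Chromosome 14 had the clusters with the lowest share of bases in the knockout among chromosomes with any partner. A row of 6 chains, from 42585622 to 44684023, held 50 of its 65 members over 132 kb. Successive chains of this row began 319 to 378 kb apart, with gaps of 163 to 190 kb between them and no other wild-type region in the gaps. The single knockout region in the row, 1334 bp from 44109158, overlapped a 1594 bp wild-type region. The last and largest chain of the row, from 44309218 to 44684023, had 19 regions over 68.4 kb and none in the knockout; its 3 widest regions measured 9032, 9008 and 8989 bp. It was the chain with most wild-type bases among the 22 without a knockout region. The other 4 chains of the chromosome had 15 members over 14.4 kb and no partner.

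Chromosome 15 had 2 further chains, from 63653494 with 7 regions and from 77354732 with 4, both without a knockout region. The distal chain of chromosome 16, from 93946145, had 1 of 3 members with a partner, and that of chromosome 18, from 20424506, had none of 3. On chromosome 19, the chain from 61259702 to 61341952, near the distal end of the chromosome, had 3 of 7 regions with a partner; a 2163 bp knockout region covered all of a 780 bp region and 7.07% of the 297 bp region after it, and 6.04 kb were covered in the wild-type against 2.39 kb in the knockout list. The chains from 9339951, 9686644 and 39711414 held no knockout region.

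Members with a partner were wider than those without over all 36 chains, but not outside the first chains. The median width was 4702 bp with a partner (quartiles 1040 and 7418 bp) and 1913 bp without (804.75 and 3035 bp), a ratio of 2.46. In the first chains the medians were 8033 bp (14 regions) and 1504 bp (40 regions). In the other chains they were 1594 bp (19 regions) and 1952.5 bp (206 regions), a ratio of 0.816, although 8 of the 19 and 52 of the 206 were at least 3 kb wide. Since overlap comes more easily to wide regions, shares were also compared within width classes. Of 14 members of at least 10 kb, 5 had a partner (35.7%, Wilson 16.3 to 61.2%), all 4 of those in first chains and 1 of the 10 elsewhere. Those 10 all lay on chromosome 17, most of them in the chain with most regions, so they are neighbours rather than independent cases. This open-ended class did not match widths: the median was 17294 bp for the 4 in first chains and 11489.5 bp for the 10 elsewhere. On chromosomes 1 to 13, 125 of 171 chained regions of that width had one (73.1%, 66.0 to 79.2%), or 94 of 137 (68.6%, 60.4 to 75.8%) without the largest chain of chromosome 4. Their median width was 16483 bp, or 14628 bp without that chain, against 12912 bp for the 14 members. Here too the wider set had the higher share. Between 3 and 10 kb the members had 15 of 68 (22.1%, 13.8 to 33.3%), against 151 of 516 on chromosomes 1 to 13 (29.3%, 25.5 to 33.3%). From 1 to 3 kb the counts were 6 of 115 (5.22%, 2.41 to 10.9%) and 65 of 707 (9.19%, 7.28 to 11.5%). Under 500 bp the members had 3 of 28 (10.7%, 3.71 to 27.2%) and the regions on chromosomes 1 to 13 had 3 of 116 (2.59%, 0.883 to 7.33%).

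**Figure D4:**
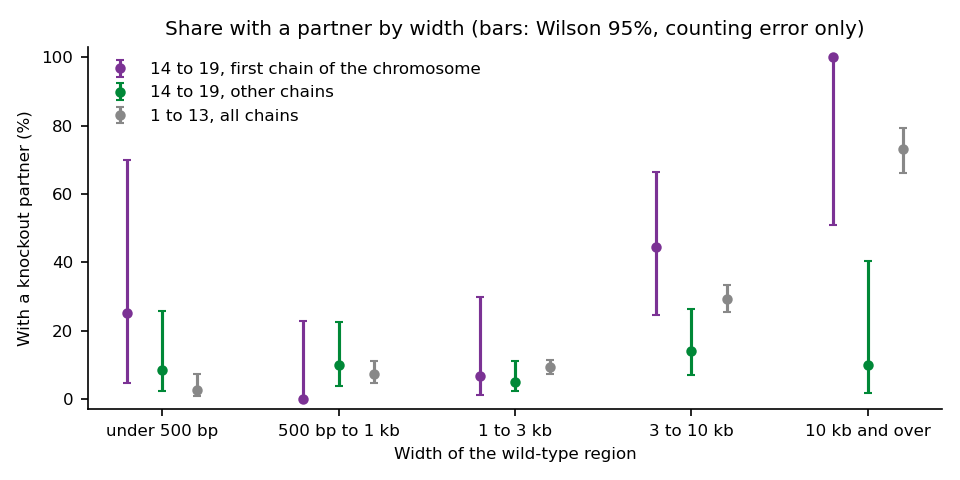
Percentage of wild-type regions that had a knockout partner (y axis) by width class (x axis), for first chains (purple) and other chains (green) on chromosomes 14 to 19 and for all chains on chromosomes 1 to 13 (grey); bars are Wilson 95% intervals. At 10 kb and over the shares are 100% (4 of 4), 10% (1 of 10, all 10 on chromosome 17) and 73.1%. Widths are not matched within this class.

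Where both lists had a region, the widths were close in the median but spread widely. Among the 27 members that paired 1 to 1 with a knockout region, 15 were narrower and 12 wider in the knockout, with a median ratio of knockout to wild-type width of 0.988 (lowest 0.226, highest 4.3). Chained regions on chromosomes 1 to 13 had a median ratio of 0.802 over 228 pairs, narrower in the knockout in 190 of them. The 2 sets of pairs were not matched for width. Among the 27 member pairs the median offset was 331 bp between starts and 483 bp between ends, and 11 pairs had neither edge more than 500 bp apart. For the 17 pairs with a wild-type width of at least 3 kb the ratio ran from 0.453 to 1.17, and the wider spread came from the 10 narrower pairs. The 6 other members with a partner shared it: 3 knockout regions each overlapped a pair of wild-type regions. The second region of the pair was covered to 62.4% on chromosome 18 and to 7.07% on chromosome 19.

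**Figure D5:**
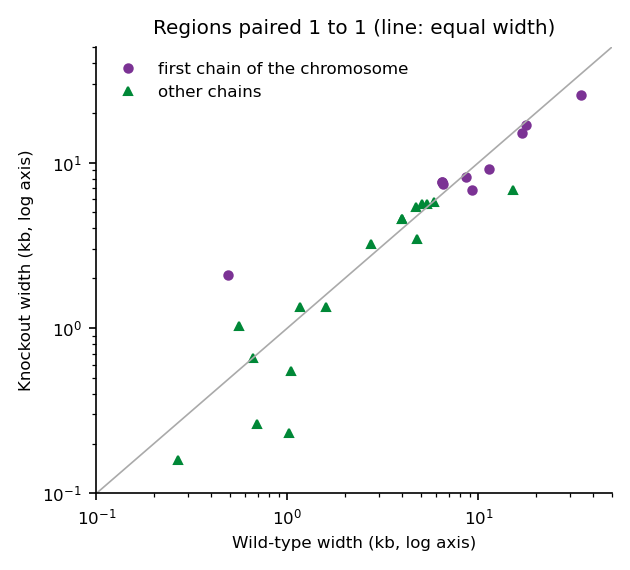
Knockout width (kb, y axis, log scale) against wild-type width (kb, x axis, log scale) of the 27 members paired 1 to 1, in first chains (purple circles) and other chains (green triangles); the line marks equal width. Pairs of at least 3 kb in wild type have ratios between 0.453 and 1.17, and narrower pairs have ratios between 0.226 and 4.3.

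Of the 33 knockout members, 30 overlapped a wild-type region (90.9%, Wilson 76.4 to 96.9%), against 91.4% of all knockout regions; they were members because they touch a chain, so they lie near wild-type regions by construction. Their median width was 4588 bp (quartiles 1360 and 7390 bp). The 3 without a partner all lay on chromosome 17. One, 2205 bp from 6456893 in the chain with most regions, was 1383 bp from the nearest wild-type region. The others, from 15131918 and 15163286, lay in the chain from 15105476 to 15171009, and both were 1360 bp wide.

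That chain showed regularly spaced regions in both lists that never overlapped. Wild-type regions of 2574, 2576 and 2576 bp began at 15105476, 15137067 and 15168434, that is 31591 and 31367 bp apart. The knockout list had regions of 1360 bp at 15100324, 15131918 and 15163286, 31594 and 31368 bp apart, the first of them before the chain and so no member. Each knockout region ended 3792, 3789 and 3788 bp before the next of these wild-type regions. The spacing of the regions was thus equal in both lists to within 3 bp. The fourth wild-type region, 4623 bp from 15152272, had no match of its width in the chain.

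Other members also recurred in near-identical layout, which was measured as couples of regions whose widths match those of another couple within 10 bp. Among successive regions, with the distance matched to the same tolerance, 2 such matches were found, both on chromosome 17. In the chain with most regions, regions of 7238 and 3958 bp from 6670360 and 6698257 recurred from 6875562 and 6903458, with starts 27897 and 27896 bp apart. In both couples the 7238 bp region had no partner and the 3958 bp region had one of 4588 bp, which began 331 bp before it and ended 299 bp after it. The other match, in the chain from 35539549 to 35609282, had no partner in either couple.

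A wider search, added after the data were seen, allowed any spacing within a chain, distances matched within 100 bp, and reversed order. It found 24 members (8.6%) in such layouts, 12 of them in the chain with most regions. No such share is given here for other chromosomes, so whether 8.6% is high cannot be told. The 12 couples of matched regions comprised 1 with a partner for both regions, 11 with none for either, and 0 that differed; most members had no partner, so matched couples without one are common in any case. In the chain with most regions, 4 couples of 1640, 2167, 6564 and 1943 bp were mirrored around 1 point, 6730725, to within 1 bp, and none had a partner. In the first chain of chromosome 16, 2 couples of 335 and 1455 bp were mirrored around the points 3233232 and 3233200, and none had a partner. Paired by midpoint alone, whatever the widths, that chain had 6 couples with midpoints between 3233200 and 3233426, and the chain with most regions also had at most 6 within a window of that kind (250 bp). In the first chain of chromosome 16 both regions had a partner in 1 of these 6 couples, whose widths of 17664 and 7418 bp differ, and neither had one in the other 5.

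Equal widths were also found between chromosomes. The first region of chromosome 16 (3008764 to 3015228) and that of chromosome 19 (3063407 to 3069871) were both 6465 bp wide, and their knockout partners were both 7595 bp wide. On chromosome 16 the partner reached 624 bp before and 506 bp past the wild-type region, and on chromosome 19 it reached 506 bp before and 624 bp past it, so the layout was the same in reversed order. Among the 82 members of at least 3 kb, 6 couples had exactly equal widths: 4 on chromosome 17, 3 of these inside the chain with most regions, and 2 between chromosomes (16 and 19, 17 and 18). No such count is given here for other chromosomes. No sequences were compared, so whether such regions are copies of each other was not tested. The placement of reads that fit several places is not stated in the sources used here, and its part in these matches was not tested.

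Few gaps lay just above the chaining limit. The widest gap below it was 99.7 kb, and there were 12 gaps between 90 and 100 kb and 2 between 100 and 110 kb. Just inside the size limit, the 9 chains of 3 regions held 5 members with a partner of 27, in 4 chains. Just outside it, the 30 groups of 2 held 5 of 60, in 4 groups, and single regions had 22 of 248.

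Chains elsewhere gave other shares by count. Those on chromosomes 1 to 13 held 1748 wild-type regions, 361 with a partner (20.7%, Wilson 18.8 to 22.6%), or 17.8% (16 to 19.8%) without the largest chain of chromosome 4. On chromosome X the share was 48.5% (100 of 206) and on chromosome Y 62.7% (47 of 75). By bases, 40.1% of the chained wild-type sequence on chromosomes 1 to 13 was also covered in the knockout, against 19.2% here. The share of chains with a knockout region was 47.4% (Wilson 39.8 to 55.2%) on chromosomes 1 to 13 and 38.9% here. These differences were not tested, for the reasons given above.

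Place within a chain gave no common order. Of the 72 members at a chain end, 12 had a partner (16.7%, Wilson 9.8 to 26.9%), against 21 of the 207 inside (10.1%, 6.73 to 15%). On chromosomes 1 to 13 the shares were 14.4% at the ends (45 of 312) and 22.0% inside (316 of 1436). Nor did the share follow chain size: it was 18.5% in chains of 3 regions, 8.6% in those of 4 to 8 (8 of 93) and 12.6% in those of 9 or more (20 of 159).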

How the data were processed

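Thymocytes were crosslinked with formaldehyde, sonicated and immunoprecipitated for H3K9me3 with a Diagenode antibody, per the labels' protocols. Reads were aligned with Bowtie to mm9, per the submitters' processing notes. Its version, the region caller, the caller's settings and any use of input were not given in the sources used here. Per region, the lists the authors deposited hold positions in base pairs only, so no count test applied and the depth per sample is unknown. Starts were read as counted from 0 and are printed counted from 1.

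Chaining, overlap and covered bases (knockout regions clipped to the chain span) were computed in Python 3.11.15; Wilson 95% intervals came from scipy 1.17.1. The procedures were tested on simulated lists. No test between genotypes was possible with 1 library each, and no difference was tested.

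The members, the comparisons and the rules for naming regions were chosen with earlier results of these data known. The naming rules covered the 8 chains with most regions, the 6 with most wild-type bases and no knockout region and the 6 with the highest share of bases in the knockout. They also covered the chain with most regions on each chromosome, the 6 widest members with and without a partner, and every knockout member without one. Not all of these are described singly above. Other regions named were chosen after their values were seen. Alternatives were other chaining limits, overlap rules, width filters and the leaving out of chains or chromosomes. No mm9 genome or annotation was used, so genes and sequences are not given.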

Additional observations from a re-analysis of the deposited data

How the results depend on the processing

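The main values were recomputed under changed settings, which gave 66 values: 55 stayed within the main Wilson interval (shares) or within 1.5 times (ratios), 10 moved and 1 reversed. Leaving out first chains or recurring couples was chosen after the data were seen. The share of members with a partner, 11.8%, was 19.7% when a knockout region up to 10 kb away counted, 17.6% with neighbours joined across gaps of up to 10 kb, 29% when the wild-type list was cut to its widest regions (605, the number of knockout regions) and 8.44% without the first chains; under the other settings it ran from 10 to 15%. The ratio of covered bases, 4.62, was 7.25 after joining, 2.83 among the widest regions and 11.2 without the first chains, and otherwise 3.6 to 6.24. After joining, the bridged gaps count as covered in both lists. The share of chains with a knockout region, 38.9%, was 64.7% among the widest regions, where 17 chains remain, and otherwise 27.3 to 51.6%. Under the changed overlap rules this value counts chains with a wild-type region that meets the rule instead. The ratio of median widths, 2.46, was 1.05 among the widest regions, a set that is limited in width by its construction, 4.39 without chromosome 17, and reversed to 0.816 without the first chains. The cause of these changes was not tested under any setting. No paired analysis was possible because there is 1 H3K9me3 library per genotype. The unknown depth limits every value.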
